A study of Mus musculus with 8 samples.

Results

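The comparison of FAEE-SAP with saline in the pancreas of WT mice was made on 4 of the 8 libraries of the series, the 2 WT saline and the 2 WT FAEE-SAP libraries, chosen by genotype and treatment in their labels. The animals were 8-week-old male mice, and whole pancreas was sequenced 24 hours after i.p. injection of either saline or palmitoleic acid (POA) mixed with ethanol. FAEE-SAP, fatty acid ethyl ester severe acute pancreatitis, is the alcoholic form of the disease that the mixture models. Mice were fasted before induction and the FAEE-SAP mice were given buprenorphine, an opioid, with the first injection, according to the paper's methods. Whether saline mice received it is not stated, so effects of the opioid and of the injury cannot be told apart. The WT mice carry no deletion, were bought from a supplier, and are not described as littermates of the *Pfkfb3* fl/fl; Pdx1-Cre (cKO) animals that make up the other 4 libraries. The assay was bulk RNA-Seq with 2 biological replicates in each group. The p-values rest on the spread between 2 animals a group, joined in the model with the spread of other genes.

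The exocrine pancreas is built mostly of acinar cells, which make, fold, and store digestive enzyme precursors in zymogen granules under a small set of transcription factors (PTF1A, RBPJL, MIST1, NR5A2). Ethanol and long-chain unsaturated fatty acids are joined in the pancreas into fatty acid ethyl esters, which are known to raise cytosolic Ca2+ and to injure acinar cell mitochondria. In acute pancreatitis acinar cells are known to lower enzyme genes, to raise REG proteins and duct-type keratins, and to release chemokines that draw neutrophils.

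Values are RPKM (reads per kilobase of exon, normalized by the authors to library size), divided by a scaling factor for each library that centers the typical gene ("scaled RPKM"). Of 48709 genes in the files, 10894 reached an RPKM of 0.5 in at least 2 of the 4 libraries and were tested. A gene was called at a Benjamini-Hochberg adjusted p under 0.05 in limma and a change of at least 2-fold on log2(scaled RPKM + 0.1), a scale that understates the change of low genes. FAEE-SAP raised 335 genes and lowered 420, which is 6.93% of all genes tested in either direction, 3.08% higher and 3.86% lower. All 755 had FAEE-SAP libraries that did not overlap the saline libraries, as had 58.8% of all genes tested. Changes of at least 8-fold were found in 58 genes that rose and 24 that fell. The minimum applied to deposited RPKM, before scaling, and 1483 of the 10894 genes passed it only with FAEE-SAP and 33 only with saline. Of the genes that rose, 135 were under the minimum in both saline libraries and were tested only through the FAEE-SAP libraries, and 175 passed it in all 4. Such genes had to differ in deposited RPKM, though not in scaled RPKM, and their calls are no support beyond the values. That limit holds among genes named below for *Saa1*, *Saa2*, *Serpina3m*, *Ptx3*, *Krt20*, *Fut2*, *Il1b*, *Il1rn*, *Timp1*, *Mmp8*, *Selp*, and 4930539E08Rik. It also covers the neutrophil genes and chemokines noted below. Of the genes that fell, 32 were under the minimum in both FAEE-SAP libraries and 355 passed it in all 4. The same holds for *Aldh1l2*, *Cth*, *Plcb1*, *Rab27b*, and *Ranbp3l*, tested only through the saline libraries. Without FAEE-SAP replicate 1, FAEE-SAP replicate 2, saline replicate 1, or saline replicate 2, the counts were 294, 97, 262, and 491 genes, and counts with 1 library left out are given below in that order.

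The libraries held about 28.4 M and 27.3 M reads (saline) and 22.9 M and 32.7 M reads (FAEE-SAP), worked out from the step between low RPKM values. Replicates correlated at 0.959 with saline and 0.957 with FAEE-SAP over log2 values of the genes tested. The median gene differed by 0.25 and 0.28 log2 units between the libraries of a group and by 0.37 between the group means. Group means vary less than single libraries, so these values are not like measures. The scaling factors were 0.579 and 0.695 for saline and 1.62 and 1.55 for FAEE-SAP. The typical gene had thus a higher deposited RPKM with FAEE-SAP, and without scaling the median over all tested genes moved from 0.02 to 1.24 on the log2 scale. The split of calls moved with it, to 7184 higher and 86 lower, so every change below is relative to the typical gene. All 335 genes that rose were also called higher on the deposited values, while of the 420 that fell 83 were called lower and 331 had a log2 fold change below 0. Amounts of RNA per cell or per pancreas were not measured, and in whole tissue fewer cells of a type and less RNA per cell cannot be told apart.

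Acinar enzyme genes, which define the exocrine pancreas, led every library and took a smaller share with FAEE-SAP. The 32 enzyme genes listed made up 85.2% and 84.3% of the summed deposited RPKM with saline and 64.3% and 66.9% with FAEE-SAP. The 7 Reg genes moved the other way, from 1.53% and 1.36% to 9.28% and 6.66%, and the 74 cytosolic ribosomal protein genes from 1.61% and 1.89% to 3.12% and 3.13%. Genes at or over an RPKM of 0.5 numbered 8437 and 9267 with saline and 11343 and 10943 with FAEE-SAP.

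**Figure D1:**
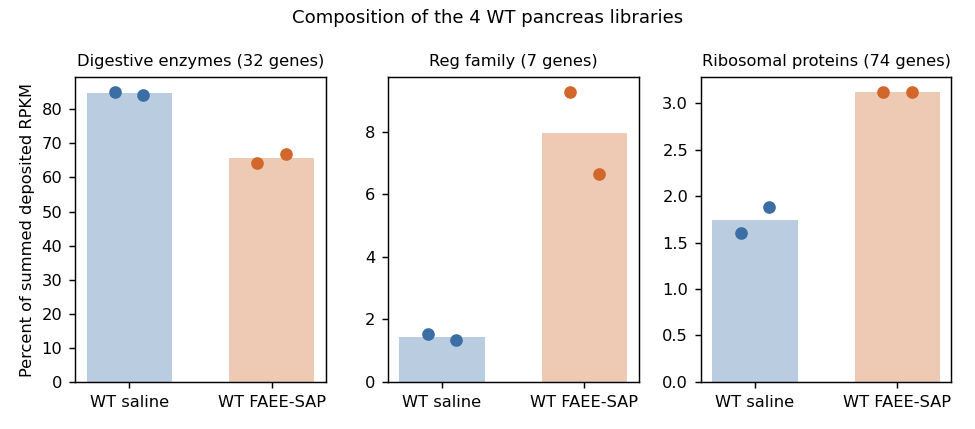
Share of the summed deposited RPKM (y axis, percent) held by digestive enzyme, Reg family, and ribosomal protein genes in each WT library. Points are libraries and bars are the mean of 2; enzymes hold 85.2% and 84.3% with saline and 64.3% and 66.9% with FAEE-SAP.

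Of the 31 digestive enzyme genes tested, 30 fell with FAEE-SAP and none rose, beside 3.86% of all genes tested that fell, and the list median was -1.96 on the log2 scale against 0.02 for all genes. The exception was *Amy1*, the salivary-type amylase, with a log2 fold change of -1.14 and an adjusted p of 0.0847 in limma. With 1 library left out, 24, 22, 23 and 31 of them were called. Their changes varied with the normalization. Their median was -0.64 with 6 calls on the deposited values and -0.34 with 9 calls after quantile normalization. On the deposited values 3 of the 31 had a log2 fold change above 0 (*Prss3*, *Amy1*, and *Klk1*), and after quantile normalization 5 had (*Try5*, *Ctrb1*, *Cela1*, *Cela3b*, and *Klk1*), with an amylase median of -0.04. Without the filter on low values 9 were called.

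Colipase (*Clps*, chr17:28558149-28560766), the cofactor that anchors pancreatic lipase to fat droplets, fell most among the enzymes. Its scaled RPKM was 26111 and 24309.6 with saline and 1855 and 1638 with FAEE-SAP. Both FAEE-SAP libraries were far under both saline libraries, a log2 fold change of -3.85 (SE 0.14) with a limma adjusted p of 0.000782. Pancreatic ribonuclease, *Rnase1*, had a scaled RPKM of 13557 and 12376 with saline and 2179 and 774 with FAEE-SAP (log2 fold change -3.32, SE 0.46, limma adjusted p 0.017). The FAEE-SAP libraries differed from each other here, and each was under both saline libraries. The trypsin-regulating chymotrypsinogen *Ctrc* went from a scaled RPKM of 131 and 89.5 to 14.7 and 14.3 (log2 fold change -2.89), and procarboxypeptidase *Cpb1* from 17077 and 13943 to 2334 and 3281 (log2 fold change -2.48). All 6 lipolytic genes fell, with a median of -2.07, and all 6 trypsinogens fell, with a median of -1.58.

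The 5 genes with the highest scaled RPKM were the same with either treatment, *Ctrb1*, *Amy2a1*, *Try4*, *Prss2*, and *Cela1*. Chymotrypsinogen *Ctrb1* had a scaled RPKM of 104003 and 82546 with saline and 36372 and 32420.5 with FAEE-SAP (log2 fold change -1.43, SE 0.16, limma adjusted p 0.0107). Pancreatic amylase *Amy2a1* had a scaled RPKM of 103228 and 82542 with saline and 20488 and 26263 with FAEE-SAP (log2 fold change -1.99, SE 0.19, limma adjusted p 0.00576). These most abundant transcripts had smaller log2 fold changes than *Clps* and *Rnase1*, and the difference was not tested. The amylase, trypsinogen, and elastase genes include near-identical copies, and how their shared reads were assigned is not given in the sources used here.

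The promoter of *Ctrb1* is shown because E-boxes next to a TC-box are the kind of site that PTF1 complexes bind in acinar genes. In RefSeq (build GRCm38.p6, minus strand, chr8:111690961-111691260, 250 bases before and 50 after the start) it reads, with an E-box (CANNTG) and a TC-box-like TTTCCCA in capitals:
Ctrb1: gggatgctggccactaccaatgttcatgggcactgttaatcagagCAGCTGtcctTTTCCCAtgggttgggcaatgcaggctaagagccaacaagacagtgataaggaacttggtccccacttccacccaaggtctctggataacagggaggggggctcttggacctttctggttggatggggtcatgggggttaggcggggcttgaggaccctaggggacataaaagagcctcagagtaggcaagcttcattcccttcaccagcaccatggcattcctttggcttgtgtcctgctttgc
Their first bases lay 205 and 195 bases before the start. Promoters with both motifs anywhere on either strand belonged to 6 of the 26 enzyme genes with a promoter given (23.1%), to 29 of 302 genes that fell (9.6%), to 26 of 254 that rose (10.2%), and to 506 of 8311 tested genes (6.09%). A match is only a match of letters.

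Genes of the zymogen granule fell in part. Of the 18 genes for granules and exocytosis, all tested, 8 fell and none rose (list median -0.57, and 0.75 as deposited, where the sign flips). Calls with 1 library left out numbered 6, 4, 6 and 7. The 8 genes of granule membrane and content had a median of -1.76, and the 10 genes of docking and fusion, such as Rab and SNARE proteins, had 0.10 with 2 calls. *Serpini2*, a serpin secreted by acinar cells, had a scaled RPKM of 594 and 599 with saline and 31 and 39.2 with FAEE-SAP (log2 fold change -4.09, SE 0.17, limma adjusted p 0.0011). The granule lectin *Zg16* went from a scaled RPKM of 9083 and 7162 to 1313 and 941 (log2 fold change -2.86). The cargo receptors of the p24 family *Tmed6* and *Tmed11* went from a scaled RPKM of 257 and 243 to 34.7 and 33.4 and from 166 and 122 to 12.9 and 15.1. All of these had both FAEE-SAP libraries under both saline libraries. *Rab27b*, a GTPase of granule docking, was low throughout, at a scaled RPKM of 1.09 and 1.77 with saline and 0.163 and 0.105 with FAEE-SAP. Trypsin inhibitor *Spink1* fell as well (log2 fold change -1.63).

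Acinar transcription factors fell in part. Of 11 tested, 4 fell, 1 rose, and 6 were not called (median -0.60, and 0.66 as deposited, with the opposite sign). MIST1 (*Bhlha15*), which shapes the secretory apparatus, had a scaled RPKM of 35.6 and 37.3 with saline and 4.75 and 2.13 with FAEE-SAP (log2 fold change -3.47, SE 0.37, limma adjusted p 0.00853). Both PTF1A and its acinar partner RBPJL fell, *Rbpjl* from 19.8 and 28.2 to 7.84 and 3.62 (log2 fold change -2.13) and *Ptf1a* from 13.2 and 17.8 to 5.18 and 3.59 (log2 fold change -1.81). *Gata4* fell from a scaled RPKM of 8.17 and 5.94 to 3.1 and 1.91 (log2 fold change -1.48). *Xbp1*, the factor of the unfolded protein response and of secretory cells, rose instead, with 60.1 and 66.2 with saline and 183 and 149 with FAEE-SAP (log2 fold change 1.39, SE 0.17, limma adjusted p 0.0126). *Nr5a2*, *Gata6*, *Foxa3*, *Nr0b2*, and *Mecom* were not called, with log2 fold changes between -0.85 and 0.83. Every saline library exceeded every FAEE-SAP library for *Ptf1a*, *Rbpjl*, *Bhlha15*, and *Gata4*. Among 10 tested factors of ducts and progenitors only *Elf3*, an epithelial ETS factor, passed the test, at 1.26 and 0.95 with saline and 5.5 and 5.28 with FAEE-SAP (log2 fold change 2.2). *Sox9*, which marks ducts, had a log2 fold change of -0.44 and an adjusted p of 0.342 in limma. *Sox4* went from a scaled RPKM of 2.01 and 2.31 to 5.85 and 15.9 without overlap and was not called (limma adjusted p 0.05). Of the 10 factors, 5 had log2 fold changes above 0 and 5 below.

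**Figure D2:**
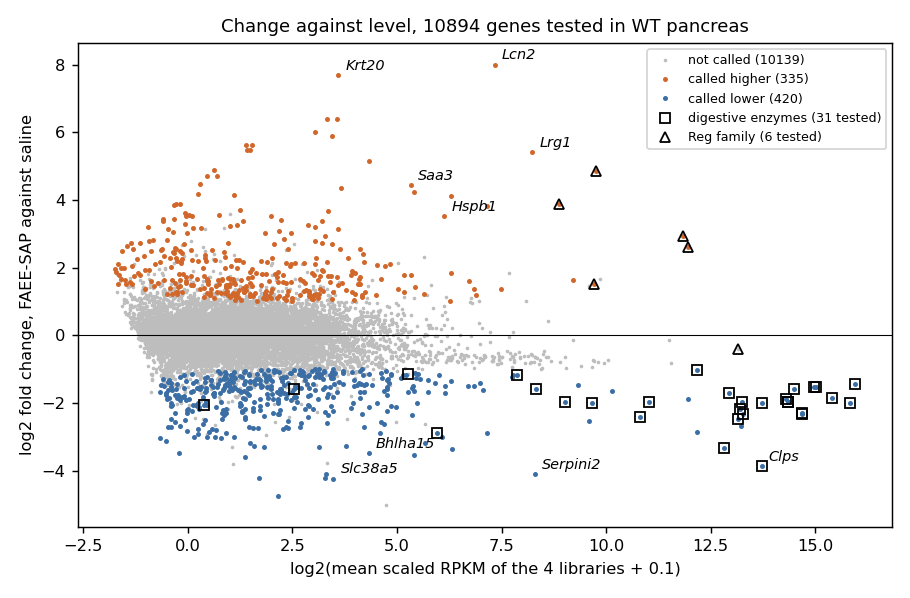
Log2 fold change with FAEE-SAP against saline (y axis) by log2(mean scaled RPKM + 0.1) (x axis) for the 10894 genes tested. The 31 tested digestive enzyme genes (squares) all lie under 0, 5 of the 6 tested Reg genes (triangles) were called higher, and *Lcn2* and *Krt20* stand highest on this scale, whose pseudocount of 0.1 shrinks the change of *Krt20* more.

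Genes that supply and fold secretory protein did not move as 1 group. Of 28 genes of endoplasmic reticulum (ER) folding and the unfolded protein response, 5 fell and none rose, with a median of -0.14 (1.17 as deposited, with the opposite sign). The pancreatic ER oxidase *Ero1lb* had a scaled RPKM of 95.8 and 87.1 with saline and 11.6 and 8.66 with FAEE-SAP (log2 fold change -3.17, SE 0.20, limma adjusted p 0.00257). The pancreatic disulfide isomerase *Pdia2* went from a scaled RPKM of 982 and 903 to 282 and 421 (log2 fold change -1.45) and the degradation adaptor *Sel1l* from 116 and 94.7 to 39.8 and 34.3 (log2 fold change -1.5). *Edem1* fell too (log2 fold change -1.28), but its sign was positive on the deposited values. Chaperones *Hspa5* (log2 fold change 1.84, adjusted p 0.105 in limma) and *Hsp90b1* (log2 fold change 0.68, adjusted p 0.26 in limma) were not called. The FAEE-SAP libraries differed from each other, at 144 and 525 scaled RPKM for *Hspa5* beside 72.8 and 80.2 with saline. Of 26 genes of translocation and glycosylation, *Ssr4*, *Sec11c*, and *Tram1* fell (median -0.46, and 0.84 as deposited, again with the opposite sign). *Ssr4* also had a positive sign on the deposited values.

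Amino acid and one-carbon genes, which the enzyme-making acinar cell expresses highly, had a median further under 0. Of 23 tested, 9 fell and none rose, with a median of -1.62 (-0.31 as deposited) and calls of 5, 4, 6 and 10 with 1 library left out. The glutamine and serine transporter *Slc38a5* had a scaled RPKM of 25.3 and 16.8 with saline and 0.887 and 1.13 with FAEE-SAP (log2 fold change -4.23, SE 0.27, limma adjusted p 0.00257). Creatine-synthesizing *Gamt* went from a scaled RPKM of 22.1 and 27.5 to 2.98 and 2.03 (log2 fold change -3.27), lysine-degrading *Aass* from 5.85 and 4.77 to 0.57 and 0.366 (log2 fold change -3.27), and proline-synthesizing *Pycr1* from 4.24 and 5.61 to 0.498 and 0.40 (log2 fold change -3.19). Both FAEE-SAP libraries lay far under saline for these 4 genes. The creatine enzyme *Gatm* had a scaled RPKM of 52 and 50.5 with saline and 18 and 4.16 with FAEE-SAP and was not called (adjusted p 0.0672 in limma). Mitochondrial folate enzyme *Aldh1l2* went from a scaled RPKM of 5.0 and 7.1 to 0.161 and 0.32 (log2 fold change -4.19), under the minimum in both FAEE-SAP libraries. Several of these genes are targets of ATF4, the effector of the integrated stress response. In the list for that response, 6 of 21 tested genes fell, all of amino acid synthesis or transport (*Asns*, *Phgdh*, *Mthfd2*, *Cth*, *Cbs*, *Slc38a2*), *Cth* having passed the minimum only with saline, and 1, the stress regulator *Nupr1*, rose (median -0.78, and 0.54 as deposited, with the opposite sign). *Cth*, which makes cysteine, had a scaled RPKM of 3.07 and 6.3 with saline and 0.241 and 0.31 with FAEE-SAP (log2 fold change -3.59, SE 0.38), and *Nupr1* had a scaled RPKM of 322 and 256 with saline and 881 and 896 with FAEE-SAP (log2 fold change 1.63, SE 0.16, limma adjusted p 0.00721). *Atf4* itself had a scaled RPKM of 35.1 and 45.5 with saline and 28.6 and 37.1 with FAEE-SAP and *Ddit3* 0.533 and 0.984 with saline and 1.43 and 1.77 with FAEE-SAP, with adjusted p of 0.44 and 0.114 in limma.

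The promoter of *Pycr1* holds 1 match to the ATF4 element (TTGCATCA, here on the opposite strand), 103 bases before the start, and is shown as an example (RefSeq, GRCm38.p6, minus strand, chr11:120643699-120643998, match in capitals):
Pycr1: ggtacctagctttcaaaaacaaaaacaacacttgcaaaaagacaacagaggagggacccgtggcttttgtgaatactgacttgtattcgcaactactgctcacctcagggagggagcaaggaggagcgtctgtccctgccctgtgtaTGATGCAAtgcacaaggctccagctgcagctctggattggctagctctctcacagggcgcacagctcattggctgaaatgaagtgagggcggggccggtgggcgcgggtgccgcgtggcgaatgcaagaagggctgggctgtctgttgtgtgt
This element was found in 3 of 302 promoters of genes that fell (0.993%), 2 of 254 of genes that rose (0.787%), and 70 of 8311 of all genes tested (0.842%), on either strand, so the share was near that of all genes in both directions.

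Mitochondrial and ribosomal protein genes had medians under 0, and the sign of these medians rests on the scaling. Of 52 nuclear genes of the respiratory chain 6 fell and none rose, with a median of -0.63 that became 0.69 on the deposited values. Calls numbered 1, 0, 0 and 2 with 1 library left out. Of those that fell, *Cox7b* went from a scaled RPKM of 22.6 and 23.3 to 8.54 and 7.75, *Ndufa1* from 43.7 and 35.8 to 17.9 and 17.2, and *Sdhb* from 17.8 and 17.4 to 8.23 and 8.07, and *Ndufa1*, *Sdhb*, and *Atp5g1* had the opposite sign on the deposited values. All 13 genes encoded by mitochondrial DNA had negative log2 fold changes, 2 of them called (*mt-Nd2* and *mt-Nd4l*), with a median of -0.90 and 0.43 as deposited. All 74 cytosolic ribosomal protein genes lay between -0.97 and -0.28 with a median of -0.65 (0.68 as deposited), and none reached 2-fold. With no fold minimum, 34 had an adjusted p under 0.05 in limma and 72 an unadjusted p under 0.05. Voom called none, but was read only with the 2-fold minimum and so cannot speak to these smaller changes.

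Several secreted defense and acute-phase proteins rose steeply. Lipocalin 2 (*Lcn2*, chr2:32384633-32388252), which withholds iron from bacteria, had a scaled RPKM of 1.07 and 1.27 with saline and 322 and 323 with FAEE-SAP. The FAEE-SAP libraries were alike and far over both saline libraries (log2 fold change 8.0, SE 0.17, limma adjusted p 0.00012). The leucine-rich glycoprotein *Lrg1* had a scaled RPKM of 13.5 and 13.7 with saline and 536 and 636 with FAEE-SAP (log2 fold change 5.41, SE 0.16, limma adjusted p 0.00038). Serum amyloid A genes rose too: *Saa1* went from a scaled RPKM of 0.0999 and 0.259 to 16.6 and 29.7 (log2 fold change 6.38), *Saa2* from 0.373 and 0 to 12.5 and 26.7 (log2 fold change 6.4), and *Saa3*, the form made outside the liver, from 2.01 and 5.84 to 70.5 and 82.8 (log2 fold change 4.43). *Saa1* and *Saa2* are near-identical and their reads may be divided between them. Antiproteases *Serpina3m* and *Serpina3n*, of a cluster of close paralogs, went from a scaled RPKM of 0.283 and 0.0613 to 12.8 and 19.5 and from 10.5 and 6.61 to 124 and 173. In each of these genes both FAEE-SAP libraries were above both saline libraries. Haptoglobin (*Hp*) went from a scaled RPKM of 3.64 and 4.66 to 61.6 and 100.3 (log2 fold change 4.22). The pentraxin *Ptx3* had no read with saline and 6.2 and 3.79 with FAEE-SAP, at least 152-fold higher against a floor of 3 reads over the group.

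Of the 31 acute-phase genes listed, 21 were tested, 10 of them only through the FAEE-SAP libraries. In all, 13 rose and none fell (median 3.15), and 6 of the 13 were among those 10, which had to be higher in deposited RPKM. With 1 library left out the calls were 5, 4, 13 and 11, and the first 2 of these counts leave few genes above the minimum in 2 libraries. Among genes not called were *Orm1* (0.314 and 0 against 0.728 and 3.83, adjusted p 0.0963 in limma), *Itih4* (log2 fold change -0.82), and *Slpi* (log2 fold change 1.06). Many of these proteins are also made by the liver, whose own marker albumin (*Alb*) had a scaled RPKM of 1.01 and 0.202 with saline and 0.0803 and 0 with FAEE-SAP, and *Apoa1* had a scaled RPKM of 0.197 and 0 with saline and 0.0435 and 0 with FAEE-SAP. Of 12 hepatocyte genes listed 2 were tested. *Ahsg*, another liver secretory protein, was low but higher with FAEE-SAP, at a scaled RPKM of 0.248 and 0.107 with saline and 0.528 and 0.881 with FAEE-SAP, and was not called (log2 fold change 1.55, SE 0.39, limma adjusted p 0.0703). *Ttr*, also expressed by islets, fell from a scaled RPKM of 8.74 and 9.38 to 1.06 and 1.57.

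Reg genes encode small secreted lectins that the injured pancreas makes in large amounts, and 5 of the 6 tested rose. *Reg3a* had a scaled RPKM of 64.6 and 48.2 with saline and 2168 and 1196 with FAEE-SAP (log2 fold change 4.85, SE 0.31, limma adjusted p 0.00257). *Reg3g* went from a scaled RPKM of 51.1 and 69 to 1016 and 742 (log2 fold change 3.87). *Reg3b*, among the most abundant, had a scaled RPKM of 969.9 and 706 with saline and 7332 and 5526 with FAEE-SAP (log2 fold change 2.94, SE 0.22, limma adjusted p 0.00337), and *Reg2* had a scaled RPKM of 1221 and 1006 with saline and 7651 and 5909 with FAEE-SAP (log2 fold change 2.6, SE 0.19, limma adjusted p 0.00298). For these 4 genes FAEE-SAP did not overlap saline. *Reg3d* rose by less (log2 fold change 1.53). *Reg1*, the most abundant member with saline, had a scaled RPKM of 12086 and 8742 with saline and 8967 and 6693 with FAEE-SAP and was not called, its groups overlapping (log2 fold change -0.41, SE 0.22, limma adjusted p 0.298). The family is a cluster of related genes on chromosome 6 and reads shared between copies may blur single members. With 1 library left out, 4, 4, 5 and 5 members were called.

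**Figure D3:**
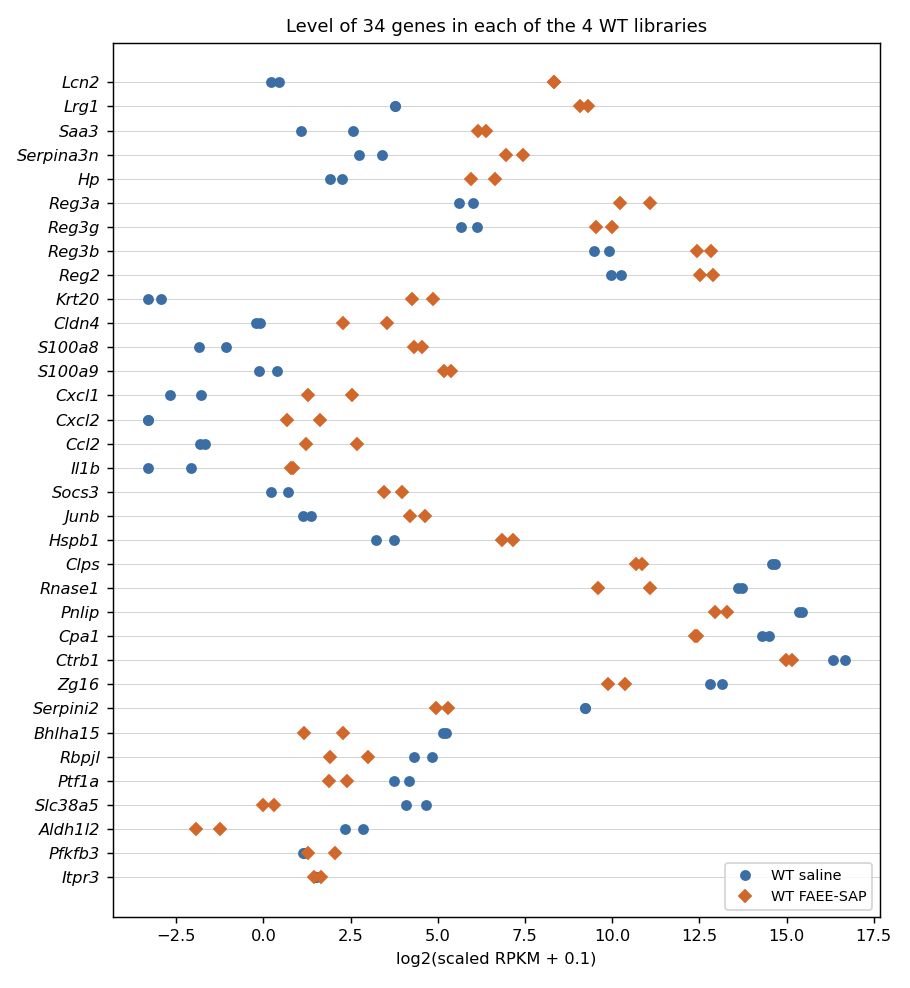
Log2(scaled RPKM + 0.1) (x axis) of 34 genes (y axis) in each WT library, saline as circles and FAEE-SAP as diamonds. The 2 groups do not overlap for any gene shown except *Itpr3*, whose FAEE-SAP libraries span the saline ones.

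Some stress and signaling genes rose, and most members of their lists were not called. The small heat shock protein *Hspb1* had a scaled RPKM of 13.2 and 9.2 with saline and 143 and 115 with FAEE-SAP (log2 fold change 3.53, SE 0.23, limma adjusted p 0.00279), while the related *Cryab* fell from a scaled RPKM of 6.57 and 6.62 to 3.31 and 2.34 (log2 fold change -1.22, of opposite sign on the deposited values), and 15 of the 17 heat shock genes tested were not called. *Socs3*, the feedback inhibitor that STAT3 induces, had a scaled RPKM of 1.05 and 1.53 with saline and 15.6 and 10.8 with FAEE-SAP (log2 fold change 3.26, SE 0.28, limma adjusted p 0.00458). None of these genes overlapped between treatments. *Stat3* itself went from a scaled RPKM of 3.94 and 2.96 to 8.47 and 16.8 (log2 fold change 1.77). The NF-kB subunit *Rela* went from a scaled RPKM of 7.6 and 5.82 to 19 and 30.8 (log2 fold change 1.85) and the nuclear cofactor *Bcl3* from 0.27 and 0.83 to 3.7 and 2.17 (log2 fold change 2.32). Of 24 genes of NF-kB and STAT3 signaling tested, 9 rose and none fell (median 0.62), with 3, 1, 1 and 4 calls when 1 library was left out and 4 with the replicate block. *Nfkbia* (log2 fold change 0.49, adjusted p 0.176 in limma) and *Nfkb1* (log2 fold change 0.35, adjusted p 0.417 in limma) were not called. Among 24 tested genes of AP-1 and the immediate early response 4 rose and 1 fell. *Junb* had a scaled RPKM of 2.12 and 2.5 with saline and 18.3 and 24.8 with FAEE-SAP (log2 fold change 3.16, SE 0.23, limma adjusted p 0.00298), *Ier3* went from a scaled RPKM of 1.02 and 1.16 to 8.64 and 8.4, and the orphan receptor *Nr4a2* fell from a scaled RPKM of 1.71 and 0.973 to 0.331 and 0.257.

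Both promoters below are printed because STAT3 is known to act on both genes, and each holds 1 match to a STAT site (TTCNNNGAA, capitals). RefSeq places that of *Socs3* at chr11:117969317-117969616 (minus strand, match starting 154 bases before the start) and that of *Reg3b* at chr6:78370635-78370934 (plus strand, 129 bases before it), both in GRCm38.p6:
Socs3: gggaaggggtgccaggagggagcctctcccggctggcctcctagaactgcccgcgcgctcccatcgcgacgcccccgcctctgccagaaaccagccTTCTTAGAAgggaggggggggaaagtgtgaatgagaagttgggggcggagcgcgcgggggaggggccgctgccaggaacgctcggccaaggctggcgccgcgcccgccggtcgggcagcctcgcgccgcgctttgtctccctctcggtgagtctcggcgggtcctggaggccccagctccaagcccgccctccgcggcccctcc
Reg3b: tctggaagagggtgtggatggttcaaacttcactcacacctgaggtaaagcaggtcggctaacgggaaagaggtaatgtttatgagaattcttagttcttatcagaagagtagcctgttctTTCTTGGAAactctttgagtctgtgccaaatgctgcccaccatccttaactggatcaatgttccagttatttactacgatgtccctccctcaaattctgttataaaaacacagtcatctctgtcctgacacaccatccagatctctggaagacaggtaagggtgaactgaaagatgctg
A STAT site was present in 39 of 254 promoters of genes that rose (15.4%), 21 of 302 of genes that fell (6.95%), and 688 of 8311 of all tested (8.28%). AP-1 sites (TGANTCA) stood at 35 of 254 (13.8%), 22 of 302 (7.28%), and 507 of 8311 (6.1%) in the same sets. These shares are descriptions without a test.

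Duct-type and metaplasia genes rose in part. Keratin 20 (*Krt20*), a keratin of simple epithelia, had a scaled RPKM of 0.0316 and 0 with saline and 19.2 and 28.7 with FAEE-SAP. On 1 approximate saline read this is 1690-fold (95% interval 302 to 66600), the interval covering counting error alone. Tight junction claudin *Cldn4* went from a scaled RPKM of 0.838 and 0.754 to 4.81 and 11.5 (log2 fold change 3.07), syndecan *Sdc1* from 2.11 and 1.91 to 23.1 and 11 (log2 fold change 2.93), and the adhesion molecule *Epcam* from 6.98 and 6.27 to 30.4 and 29.5 (log2 fold change 2.16). Of 21 genes tested 9 rose, *Lamb3* fell, and the median was 1.09, with 5, 3, 6 and 7 higher calls when 1 library was left out. *Krt19*, the usual duct keratin, had a scaled RPKM of 8.5 and 6.87 with saline and 14.3 and 13.8 with FAEE-SAP and was not called (adjusted p 0.0519 in limma), while *Krt8* and *Krt18*, which acinar cells also express, rose (log2 fold changes 1.6 and 1.21). *Cftr* and *Krt7*, both usual in ducts, did not reach the minimum. Fucosyltransferase *Fut2* rose (0 and 0.0433 to 4.48 and 6.22) and the trefoil peptide *Tff2* fell (scaled RPKM 1310.0 and 1336 with saline and 229.7 and 233 with FAEE-SAP, log2 fold change -2.51, SE 0.13, limma adjusted p 0.00203). Neither overlapped. In the EGF receptor family *Erbb3* and *Erbb2* rose (log2 fold changes 2.71 and 1.45) and the ligand *Egf* fell from a scaled RPKM of 5.38 and 4.55 to 0.608 and 0.722 (log2 fold change -2.73).

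Several chemokines that draw neutrophils and monocytes were near 0 with saline and present with FAEE-SAP. *Cxcl1* had a scaled RPKM of 0.192 and 0.0553 with saline and 5.69 and 2.31 with FAEE-SAP (log2 fold change 4.13, SE 0.51). *Cxcl2*, *Cxcl3*, and *Cxcl5* had no read in either saline library and reached 1.51 and 2.99, 0.793 and 2.34, and 8.43 and 2.74 with FAEE-SAP. Against a floor of 3 reads over the group they were at least 57.7-fold, 69.6-fold, and 113-fold higher. *Ccl2* (MCP1) had a scaled RPKM of 0.214 and 0.185 with saline and 6.37 and 2.25 with FAEE-SAP (log2 fold change 3.7, SE 0.49). The FAEE-SAP libraries differed more than 2-fold from each other for *Cxcl1*, *Cxcl3*, *Cxcl5*, and *Ccl2*, with no overlap with saline. All 5 genes passed the minimum only through FAEE-SAP and had to differ in deposited RPKM, and their calls are no support beyond these values.

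Of the 35 chemokines listed 26 were tested, 14 of them only through the FAEE-SAP libraries. In all, 12 rose (8 of 13 CXC and 4 of 13 CC chemokines) and 1, *Ccl8*, fell. But 9 of the 12 passed the minimum only with FAEE-SAP and had to be higher in deposited RPKM. There were 1, 0, 9 and 15 higher calls when 1 library was left out. Lymphoid chemokines *Ccl19* (1.47 and 5.04 with saline and 3.04 and 0.635 with FAEE-SAP) and *Ccl21a* (33.5 and 67.3 with saline and 38.7 and 30.6 with FAEE-SAP) were not called and overlapped, and *Ccl7* (0 and 0.46 with saline and 5.93 and 1.23 with FAEE-SAP) was not called either. Among 28 tested cytokines and receptors 9 rose and none fell, 10 being tested only through the FAEE-SAP libraries, 7 of the 9 among them, and 2, 0, 6 and 10 were called with 1 library left out. *Il1b* had a scaled RPKM of 0 and 0.138 with saline and 1.69 and 1.64 with FAEE-SAP and its antagonist *Il1rn* 0.039 and 0.0845 with saline and 1.65 and 1.92 with FAEE-SAP (log2 fold changes 3.52 and 3.55). *Tnf* had a scaled RPKM of 0.149 and 0.161 with saline and 0.737 and 0.408 with FAEE-SAP and was not called (log2 fold change 1.36, SE 0.35, limma adjusted p 0.0708). *Il6* was under the minimum, with no read with saline and 0.31 and 0.146 with FAEE-SAP, at least 6.17-fold higher against a floor of 3 reads over the group. Interferon-stimulated genes (19 tested) and antigen presentation genes (16 tested) gave no call in limma or voom, with 2 and 0 genes at an unadjusted p under 0.05.

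The promoters of the neighboring genes *Cxcl1* (chr5:90890995-90891294) and *Cxcl2* (chr5:90903649-90903948), both on the plus strand of GRCm38.p6 in RefSeq, are set side by side because NF-kB is known to drive them and both hold the same match to the NF-kB consensus (capitals, starting 71 and 97 bases before the start):
Cxcl1: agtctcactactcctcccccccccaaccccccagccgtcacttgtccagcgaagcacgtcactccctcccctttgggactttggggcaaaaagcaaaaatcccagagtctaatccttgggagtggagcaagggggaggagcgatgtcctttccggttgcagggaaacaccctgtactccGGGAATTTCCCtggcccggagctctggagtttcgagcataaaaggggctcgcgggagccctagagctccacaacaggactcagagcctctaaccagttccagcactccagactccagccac
Cxcl2: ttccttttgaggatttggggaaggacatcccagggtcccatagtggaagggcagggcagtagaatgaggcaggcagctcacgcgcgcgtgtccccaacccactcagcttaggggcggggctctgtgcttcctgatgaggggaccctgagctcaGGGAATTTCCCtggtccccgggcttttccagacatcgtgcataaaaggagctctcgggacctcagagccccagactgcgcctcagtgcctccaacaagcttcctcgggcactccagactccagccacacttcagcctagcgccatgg
Across sets, the consensus was matched in 4 of 19 promoters of tested chemokines (21.1%), 26 of 254 of genes that rose (10.2%), 19 of 302 of genes that fell (6.29%), and 534 of 8311 of all tested (6.43%).

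Neutrophil markers that reached the minimum were higher in both FAEE-SAP libraries than in either saline library. The alarmins *S100a8* and *S100a9*, which neutrophils hold in their cytosol, were near 1 or under it with saline. *S100a9* had a scaled RPKM of 0.816 and 1.21 with saline and 41.3 and 36.4 with FAEE-SAP (log2 fold change 5.15, SE 0.24, limma adjusted p 0.00146), and *S100a8* had a scaled RPKM of 0.175 and 0.38 with saline and 23.1 and 19.6 with FAEE-SAP (log2 fold change 5.88, SE 0.31, limma adjusted p 0.00204). The libraries of a treatment lay close together for both genes and far from those of the other. The chemoattractant receptor *Fpr1* had no read with saline and 3.29 and 2.51 with FAEE-SAP, at least 44.4-fold higher against the same floor. These libraries did not overlap either. *Fpr2* rose by 99.4-fold (95% interval 17.7 to 3940) on 1 saline read, and *Retnlg* went from a scaled RPKM of 0.40 and 0.693 to 6.4 and 8.06 and *Cxcr2* from 0.0599 and 0.121 to 1.01 and 0.988. The summed scaled RPKM of the 20 markers was 2.42 and 3.69 with saline and 84.8 and 81.5 with FAEE-SAP. Of the 20, 12 were tested, 11 of them only through the FAEE-SAP libraries. A marker that passes only where it is high has to differ in deposited RPKM, so the 12 calls are no support beyond the values. The granule genes of neutrophil precursors *Mpo* (0.0178 and 0.0308 with saline and 0 and 0 with FAEE-SAP), *Elane* (0 in all 4), *Camp*, and *Ltf* stayed under the minimum, as did *Ly6g* (0 and 0 with saline and 0.057 and 0.0835 with FAEE-SAP).

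Macrophage markers moved unequally. *Cd14*, the endotoxin coreceptor, had a scaled RPKM of 1.28 and 1.78 with saline and 17.8 and 15.7 with FAEE-SAP (log2 fold change 3.39, SE 0.23, limma adjusted p 0.00288), the chitinase-like *Chil3* went from a scaled RPKM of 1.16 and 0.871 to 7.32 and 6.81, and the scavenger receptor *Marco* from 8.5 and 15.4 to 41 and 32.3 (log2 fold change 1.66). *Fcgr1* and *Msr1* also were called higher, but passed the minimum only with FAEE-SAP and had to be higher in deposited RPKM. The general markers *Cd68*, *Adgre1*, *Csf1r*, and *Lyz2* had log2 fold changes between -0.10 and 0.70 and were not called, so 5 of 20 rose and none fell. No marker of T and NK cells (11 tested), B and plasma cells (15 tested), fibroblasts and matrix (23 tested), or red blood cells (5 tested) was called in limma or voom, with 2, 1, 5, and 0 at an unadjusted p under 0.05, and *Selp*, the P-selectin of activated endothelium, was the only 1 of 16 endothelial genes (0.0552 and 0.275 with saline and 1.23 and 1.19 with FAEE-SAP), again passing the minimum only with FAEE-SAP. For T and NK cells, saline replicate 2 held more lymphoid signal than the other libraries, with summed T and NK markers of 29.4 against 13 in saline replicate 1 and 13.8 and 14 with FAEE-SAP. Without this library 491 genes were called, 383 of them among the 755.

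Genes that remodel matrix and clots rose beside these markers. The epithelial matrilysin *Mmp7* had a scaled RPKM of 1.48 and 0.74 with saline and 19.5 and 28.1 with FAEE-SAP (log2 fold change 4.35, SE 0.36, limma adjusted p 0.00417), and the protease inhibitor *Timp1* had a scaled RPKM of 0.685 and 0.712 with saline and 9.74 and 7.2 with FAEE-SAP. *Mmp8*, a neutrophil collagenase, rose by 96.1-fold (95% interval 17.1 to 3810) on 1 saline read. Of 21 genes tested, 8 only through the FAEE-SAP libraries, 7 rose and none fell, 5 of the 7 being among those 8, with 1, 1, 6 and 8 calls with 1 library left out. Collagens *Col1a1* (log2 fold change 0.22) and *Col3a1* (log2 fold change 1.1) were not called.

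**Figure D4:**
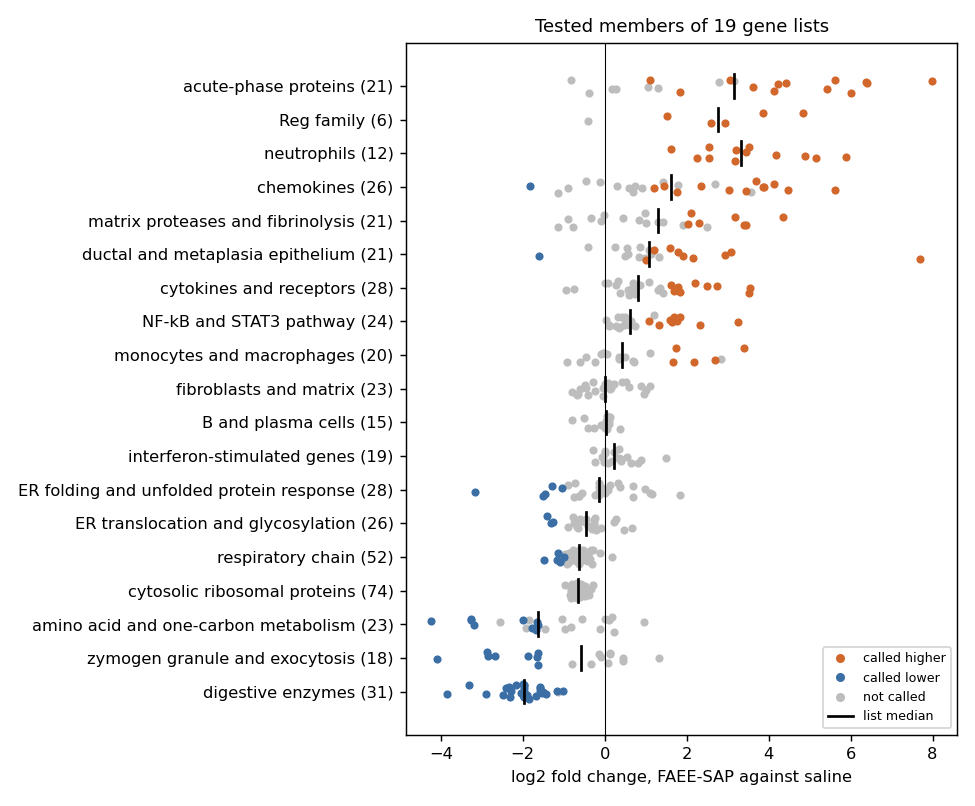
Log2 fold change (x axis) of each tested member of 19 gene lists (y axis, number tested in parentheses), with calls colored and the list median as a bar. The medians of acute-phase, Reg, and neutrophil genes are 3.15, 2.77, and 3.33, and that of digestive enzymes is -1.96. Of these, 11 of 12 neutrophil and 10 of 21 acute-phase genes passed the minimum only through FAEE-SAP, which favors high values for them.

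Genes that handle ethanol and fatty acids are given by role, with no test between roles. Of 35 tested genes of ethanol and fatty acid metabolism 6 fell and 1 rose, with a median of 0.02. The 9 genes of ethanol and aldehyde oxidation had a median of -0.82, 8 of them below 0 and 2 called lower, and 0.47 as deposited, where the sign flips. The 18 genes of fatty acid response and oxidation had a median of 0.30 with 1 called higher and 3 lower, and the 8 of lipid synthesis a median of 0.15 with 1 called lower. *Plin2*, the coat protein of lipid droplets, had a scaled RPKM of 1.84 and 2.74 with saline and 12.1 and 19.8 with FAEE-SAP (log2 fold change 2.73, SE 0.32, limma adjusted p 0.0109). Medium-chain acyl-CoA dehydrogenase (*Acadm*) went from a scaled RPKM of 15.1 and 10.8 to 3.42 and 2.2 (log2 fold change -2.18) and the aldehyde dehydrogenase *Aldh1a1* from 15.7 and 19.7 to 4.53 and 6.65 (log2 fold change -1.66). None of these 3 genes overlapped between treatments. Carboxyl ester lipase (*Cel*), which can form and split fatty acid ethyl esters, had a scaled RPKM of 15542 and 15404 with saline and 2854 and 4172 with FAEE-SAP (log2 fold change -2.16, SE 0.20, limma adjusted p 0.00576). Among antioxidant genes heme oxygenase (*Hmox1*) rose from a scaled RPKM of 2.15 and 1.84 to 7.74 and 10.1, and the glutathione transferase *Gstm1* fell from a scaled RPKM of 47.5 and 41.2 to 11.1 and 7.97. The mitochondrial transhydrogenase *Nnt*, which some mouse substrains lack in part, had a scaled RPKM of 2.05 and 2.0 with saline and 0.519 and 0.408 with FAEE-SAP (log2 fold change -1.92).

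The study follows PFKFB3, the enzyme that makes fructose-2,6-bisphosphate, and the IP3 receptors that release Ca2+ from the ER. *Pfkfb3* had a scaled RPKM of 2.14 and 2.1 with saline and 2.31 and 4.01 with FAEE-SAP, and only FAEE-SAP replicate 2 stood well above the rest (log2 fold change 0.50, SE 0.30, limma adjusted p 0.339). On the deposited values its log2 fold change was 1.77 and was called (limma adjusted p 0.00294), beside a median of 1.24 for all genes. *Itpr3*, the main acinar IP3 receptor with *Itpr2*, had a scaled RPKM of 2.76 and 2.72 with saline and 3.03 and 2.6 with FAEE-SAP (log2 fold change 0.04, SE 0.21, limma adjusted p 0.933), and its sign turned with an RPKM minimum of 2 and without FAEE-SAP replicate 1. As deposited, *Itpr3* was called as well, at 1.31 (limma adjusted p 0.00384). *Itpr2* had a scaled RPKM of 1.84 and 1.88 with saline and 1.24 and 0.909 with FAEE-SAP (log2 fold change -0.75, SE 0.25, limma adjusted p 0.118) and *Itpr1* had a scaled RPKM of 0.693 and 1.11 with saline and 0.602 and 0.492 with FAEE-SAP (log2 fold change -0.60, SE 0.31, limma adjusted p 0.269), both of positive sign on the deposited values. None of the 4 passed the test on scaled values. Of 27 tested genes of glycolysis and hypoxia only *Pfkm*, the muscle-type phosphofructokinase, was called, from 2.24 and 2.37 to 0.899 and 0.705 (log2 fold change -1.42). Of 25 tested genes of Ca2+ release, entry, and clearance the store-operated channel *Orai2* (6.49 and 6.52 to 3.19 and 2.19, of opposite sign as deposited) and the phospholipase *Plcb1* (1.2 and 0.829 to 0.21 and 0.189) fell and none rose, *Plcb1* having passed the minimum only with saline. The cholecystokinin receptor *Cckar*, by which acinar cells sense meals, had a scaled RPKM of 90.3 and 76 with saline and 29.6 and 6.13 with FAEE-SAP. Both FAEE-SAP libraries were under both saline libraries, but they differed several-fold from each other and the log2 fold change of -2.61 (SE 0.68) was not called (limma adjusted p 0.075).

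Among the largest changes were also genes outside these groups. The neuropeptide galanin (*Gal*) had a scaled RPKM of 82.6 and 73.3 with saline and 6.15 and 7.1 with FAEE-SAP (log2 fold change -3.54, SE 0.18, limma adjusted p 0.00184). *Sostdc1*, a secreted BMP and WNT antagonist, went from a scaled RPKM of 17.9 and 18.2 to 2.04 and 0.348, the G protein regulator *Rgs11* from 25.5 and 11.2 to 1.56 and 0.50, and *Ranbp3l* from 1.34 and 1.6 to 0.0797 and 0.013. In all 4 genes saline was higher without overlap, and the last was listed near 0 with FAEE-SAP. The predicted gene *Gm4744* went from a scaled RPKM of 6.84 and 10.04 to 0.136 and 0.323 (log2 fold change -4.73), and the uncharacterized 4930539E08Rik rose by 434-fold (95% interval 120 to 3590) on 2 saline reads. Among islet hormones *Gcg* fell from a scaled RPKM of 25.6 and 21.6 to 12.3 and 11.1 (log2 fold change -1.0, of opposite sign on the deposited values) and *Sst* from 10.6 and 6.77 to 3.0 and 2.92 (log2 fold change -1.48), while *Ins1*, *Ins2*, and *Ppy* were not called (log2 fold changes -0.35, -0.75, and 0.47). Aquaporins of the acinar cell *Aqp8* and *Aqp12* fell (log2 fold changes -2.36 and -1.71).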

How the data were processed

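RNA from mouse pancreas was made into directional libraries, sequenced paired-end, filtered with fastp, and mapped to GRCm38.p6 with CLC Genomics Workbench, according to the labels and the paper's methods. The authors deposited RPKM for 48709 genes in each library, and how RPKM was computed is not given in the sources used here. Read totals and reads per gene were worked out from the low values with exonic lengths of GENCODE vM21, to which 46325 symbols (95.11%) were matched. About 85% of values gave whole reads within 0.1, so reads are approximate, and floors and intervals cover counting error only.

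RPKM was divided by median-of-ratios factors and tested as log2(scaled RPKM + 0.1) in limma 3.58.1 (R 4.3.3, intensity trend, Benjamini-Hochberg adjustment) on the 4 WT libraries, without covariates, where RPKM reached 0.5 in 2 of them. A pseudocount of 0.1 pulls changes of low genes toward 0. An exact permutation test of 2 libraries against 2 cannot give a p below 0.33, so single genes were tested only in the model across genes. Tables and plots were made in Python 3.11.15 with numpy 2.4.6, pandas 2.3.3, and matplotlib 3.10.9, and the fit was tested on simulated data.

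Genes were named as the 12 largest increases and 12 largest decreases, up to 4 called members of each of 49 lists, the 5 most abundant genes per group, and genes the study follows, with a mean of at least 1 scaled RPKM in the higher group for the first 2 kinds. Other genes in the text were chosen after their values were seen, and some genes that the rule or lists hold are not reported here. The comparison, lists, and rule were chosen with earlier results of these data known. Promoters are those of RefSeq, read for 8311 of the 10894 genes tested. Motifs were searched on both strands and can overlap: STAT site (TTCNNNGAA), AP-1 site (TGANTCA), the NF-kB consensus, E-box (CANNTG) with TC-box (TTTCCCA), and ATF4 element (TTGCATCA). Other settings tried were another minimum or pseudocount, other scalings, all 8 libraries in the fit, voom on approximate reads, a replicate block, and each library left out.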

Additional observations from a re-analysis of the deposited data

How the results depend on the processing

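Genes called numbered 755 (335 higher, 420 lower). They numbered 259 (132 and 127) with no filter on low values, 442 (183 and 259) with a replicate block, 7270 (7184 and 86) on the values as deposited, and 1349 (640 and 709) at an unadjusted p with 2-fold, and increases numbered 204 with a pseudocount of 1. With 1 library left out, they ranged from 97 to 491 in all, 33 to 265 higher, and 64 to 226 lower, lowest without FAEE-SAP replicate 2. In these fits the lone sample of a group is assumed to vary like the other group, and fewer genes pass the filter when a FAEE-SAP library is absent. All other settings kept the total within 1.5 times.

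The labels give both groups replicate numbers 1 and 2 and do not say whether same-numbered mice were processed together. Deviations of same-numbered libraries correlated at -0.18 across genes, which with 2 libraries a group cannot decide whether they form pairs. Crossed pairing, added after seeing the data, gave 822 calls (378 higher, 444 lower). Of the 755 calls, 414 were kept with the replicate block.

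On the values as deposited the log2 fold change turned positive for *Edem1* (0.0358), *Ssr4* (0.0557), *Cryab* (0.0771), *Ndufa1* (0.151), *Atp5g1* (0.131), *Sdhb* (0.212), *mt-Nd2* (0.0866), *mt-Nd4l* (0.161), *Orai2* (0.0235), *Gcg* (0.315), *Itpr1* (0.547), and *Itpr2* (0.48). *Cela1* turned to 0.0281 after quantile normalization, and *Itpr3* to -0.00783 with an RPKM minimum of 2 and ranged from -0.0289 (without FAEE-SAP replicate 1) to 0.184 with 1 library left out. The cause was not tested beyond the scaling itself. Of 126 named genes called, 16 that rose and 17 that fell were called under all 16 alternatives that could remove a call (the unadjusted p and the absent fold minimum could not), among them *Lcn2*, *Lrg1*, *Reg3a*, *Socs3*, *Clps*, *Serpini2*, *Bhlha15*, and *Slc38a5*. At these depths 1 read on 2 kb of exon is an RPKM of 0.015 to 0.022, so values near 0 rest on few reads.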

Other observations

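Several genes known to answer glucocorticoids were higher in FAEE-SAP replicate 2 than in replicate 1. Of 9 tested, *Lcn2* alone was called. *Zbtb16* had a scaled RPKM of 5.84 and 6.28 with saline and 0.921 and 9.18 with FAEE-SAP, *Sgk1* 10.8 and 5.88 with saline and 2.14 and 12.2 with FAEE-SAP, *Fkbp5* 18.7 and 9.16 with saline and 8.52 and 26.9 with FAEE-SAP, *Ddit4* 38.9 and 15 with saline and 34.9 and 134 with FAEE-SAP, and *Pdk4* 21 and 11 with saline and 13 and 47.6 with FAEE-SAP. In each of these genes FAEE-SAP replicate 2 was the highest library, and FAEE-SAP replicate 1 lay under or among the saline libraries. Metallothionein *Mt2* had a scaled RPKM of 488 and 345 with saline and 848 and 2000.2 with FAEE-SAP (log2 fold change 1.67, limma adjusted p 0.0667). No test was made of this split, and the genes were singled out after their values were seen.

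Clock genes *Dbp*, *Nr1d1*, and *Bhlhe40* rose (log2 fold changes 1.5, 1.57, and 1.46), as 3 of 13 tested. *Dbp* had a scaled RPKM of 0.895 and 0.845 with saline and 3.36 and 2.08 with FAEE-SAP and *Nr1d1* 0.85 and 1.08 with saline and 2.46 and 3.77 with FAEE-SAP. The p53 targets *Eda2r* and *Phlda3* rose (log2 fold changes 2.15 and 1.73), and 12 of the 14 tested were not called. *Eda2r*, and *Retn* below, passed the minimum only with FAEE-SAP and had to be higher in deposited RPKM. None of 12 tested cell cycle genes was called in limma or voom, with 2 at an unadjusted p under 0.05, and *Bcl2l1* was the only 1 of 17 cell death genes (log2 fold change 1.68). Adipocyte genes went both ways, with *Fabp4* from a scaled RPKM of 25.1 and 35.3 to 61 and 78.3, *Retn* from 0.385 and 0.40 to 1.28 and 1.45, and *Lpl* from 17.5 and 14.5 to 2.84 and 3.77. *Adipoq*, a defining gene of adipocytes, had a scaled RPKM of 1.19 and 3.85 with saline and 1.5 and 2.88 with FAEE-SAP.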
